A study of Mus musculus with 8 samples.

Results

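Mouse CD8 T cells that carried mitochondria of bone marrow stromal cells (BMSCs) when they were sorted, the MitoPositive cells, were compared after 7 days in the spleen of new hosts and at the end of the culture that gave rise to them. A cell was kept if it had at least 500 genes, under 15% of its unique molecular identifiers (UMIs, which count RNA molecules once) from the mitochondrial genome, and a hashtag with at least 10 UMIs and at least 3 times those of the next hashtag. By this rule the comparison held 6440 of the 16404 cells kept in the series, out of 18092 deposited barcodes. Of these, 3501 were day 7 spleen cells and 2939 were cultured cells.

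All groups started as activated CD8 T cells of 3 donor mice, cultured with BMSCs whose mitochondria were stably labelled with dsRed, a red fluorescent protein. A sort then separated T cells with dsRed, the MitoPositive arm, from those lacking it, the MitoNegative arm. The day 7 cells had been transferred into B6 mice bearing B16KVP tumors and were recovered from the spleen by flow cytometry, whereas the cultured cells (d0) were processed right after the sort. The recipients of each donor's cells were pooled, and MitoPositive and MitoNegative cells of a donor went into different recipients, so at day 7 the name MitoPositive refers to the state at transfer. The 3 spleen samples lay in 3 libraries, 1 per donor, and the 3 cultured samples shared 1 library. Day, tissue of origin and library therefore coincide and cannot be told apart in any difference reported here.

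A CD8 T cell in culture grows under cytokines with little need to move, whereas a T cell in the body circulates between blood and lymphoid organs and meets other cells and signals there. Klf2 is a transcription factor that keeps T cells in circulation, in part by activating S1pr1, the receptor that lets them leave lymphoid organs along a sphingosine-1-phosphate gradient. Ccr7 guides T cells into lymph nodes. Effector CD8 T cells carry granzymes and perforin, killer lectin-like receptors and chemokines, and mitochondria, the organelles passed to the MitoPositive cells, make ATP by oxidative phosphorylation.

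The hashtag sequences decide to which sample a cell belongs, and are given here because the cultured samples can be read by more than 1 key given by the submitters. They come from the deposited feature list, with all bases in lower case since no part is singled out. H1 marked the spleen samples of all 3 donors, in separate libraries, and the cultured sample of donor 1. H3 and H5 marked the cultured samples of donors 2 and 3.
H1: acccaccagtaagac
H3: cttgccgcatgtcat
H5: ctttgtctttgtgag
The series design, the deposited readme and the deposited hashtag list give odd hashtags to the MitoPositive cultured cells, whereas the extraction protocol gives them hashtags 1 to 3. The odd hashtags were used. Where the other key takes the call from a gene described below, or moves a group's count in either direction by 2 members or more, this is said beside the result.

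The promoters of 2 genes of the circulation results below are given as the 250 bases before the transcript start, from RefSeq on GRCm38.p6. The Klf2 window lies on the plus strand at chr8:72318812-72319061, and capitals mark CTA, any 4 bases and TAG, the outer letters of a MEF2-type site, a pattern that reads the same on both strands. The match starts 118 bases before the transcript start. That pattern was present in 1052 of 32851 windows of the same length (3.2%). The S1pr5 window lies on the minus strand at chr9:21248444-21248693, and capitals mark CACCC, a core bound by KLF-type factors, on either strand (GGGTG on the other). It held 2 matches, of which the outer starts 216 bases before the transcript start, and 21.1% of the 32851 windows held 2 or more, while 52% held at least 1. Both searches covered both strands, and a match is a description of letters only. S1pr1, also part of those results, had no entry in the promoter set searched and is named only.
Klf2: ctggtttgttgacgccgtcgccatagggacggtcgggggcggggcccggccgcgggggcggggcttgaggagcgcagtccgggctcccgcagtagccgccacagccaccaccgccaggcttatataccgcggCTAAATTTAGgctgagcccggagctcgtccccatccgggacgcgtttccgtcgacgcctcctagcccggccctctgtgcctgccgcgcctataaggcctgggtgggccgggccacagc
S1pr5: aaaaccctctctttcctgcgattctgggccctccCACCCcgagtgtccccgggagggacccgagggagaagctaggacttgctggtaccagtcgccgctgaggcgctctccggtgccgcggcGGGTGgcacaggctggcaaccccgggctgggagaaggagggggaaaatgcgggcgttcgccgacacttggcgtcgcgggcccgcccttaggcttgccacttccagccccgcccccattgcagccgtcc

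The spleen samples of donors 1, 2 and 3 held 1148, 2303 and 50 cells with 7165581, 12853423 and 325046 UMIs, and the cultured samples held 977, 937 and 1025 cells with 7062927, 8865364 and 10289787 UMIs. Donor 3's spleen sample is thus far thinner than the others. Between 96.0% and 98.3% of spleen cells and between 97.0% and 99.1% of cultured cells had at least 1 UMI of Cd3d, Cd3e or Cd3g, genes of the T cell receptor complex. At least 1 UMI of Cd8a or Cd8b1 was found in 94.0% to 97.0% of spleen cells and 94.3% to 95.8% of cultured cells. Markers of other cells moved with the day. The 14 myeloid markers summed to 444 to 1354 UMIs per 1000000 UMIs of a sample (CPM) in spleen samples, against 191 to 206 CPM in cultured samples, with 4 of them (C1qa among them) at 0 in every cultured sample. The 8 neutrophil markers summed to 241 to 948 CPM in the spleen and to 0.292 to 0.991 CPM in culture, with 5 at 0 in every cultured sample, and the 12 B cell markers to 178 to 1780 CPM in the spleen, with donor 2 highest, and 137 to 194 CPM in culture. The 14 bone marrow stroma markers summed to 0.698, 5.45 and 18.5 CPM in the spleen samples of donors 1, 2 and 3, and to 0.292 to 0.451 CPM in culture. The highest of these values is from donor 3's sample of 325046 UMIs, where such a level rests on few UMIs. The 6 gamma delta T cell markers summed to 154 to 191 CPM in the spleen and 74.9 to 102 CPM in culture, and the 5 CD4 T cell markers to 35.3 to 52.3 CPM in the spleen and 221 to 332 CPM in culture. Nearly all of that CD4 marker sum in culture came from Ctla4, an inhibitory receptor described below. The other tested CD4 marker, Cd40lg, rose in the spleen (log2 fold change 4.51). Cells with a Cd4 UMI made up 0% to 1.17% of spleen samples and 0% to 0.102% of cultured samples. The part of these other cells in the results was not tested. A group's counts for T cells alone are given where they moved by 3 members or more. T cells alone are those with a Cd3d, Cd3e or Cd3g UMI and under 5 UMIs of the myeloid, B cell and erythroid markers together. That limit was not scaled to a cell's depth, and it lowered the median UMIs of every sample. It kept 920, 1946 and 36 spleen cells and 721, 660 and 738 cultured cells. Median UMIs in culture fell from 6928, 8322 and 8599 to 4214, 6158.5 and 7127. Differences below are in CPM of a whole sample, so fewer cells of a type and less RNA per cell cannot be told apart.

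Spleen and cultured cells differed across much of the transcriptome. Of 11797 genes tested, 3151 (26.7%) were higher in the spleen and 3000 (25.4%) were lower at an adjusted p under 0.05 (edgeR quasi-likelihood test with Benjamini-Hochberg adjustment), together 52.1%, and 1053 (8.93%) and 1079 (9.15%) of these differed by at least 2-fold. The median log2 fold change over all genes, spleen over culture, was -0.0033. Without donor 3's spleen sample the counts were 3488 higher and 3177 lower, and among T cells alone they were 2634 and 3431. In a fit that gives every sample the same weight, 1881 genes (15.9%) were higher and 1758 (14.9%) lower. Counts in a gene group below are to be read against these shares. The levels of spleen and cultured samples did not overlap for 6187 of the 11797 genes (52.4%). Absence of overlap, given for single genes below, is thus common and does not by itself set a gene apart.

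**Figure D1:**
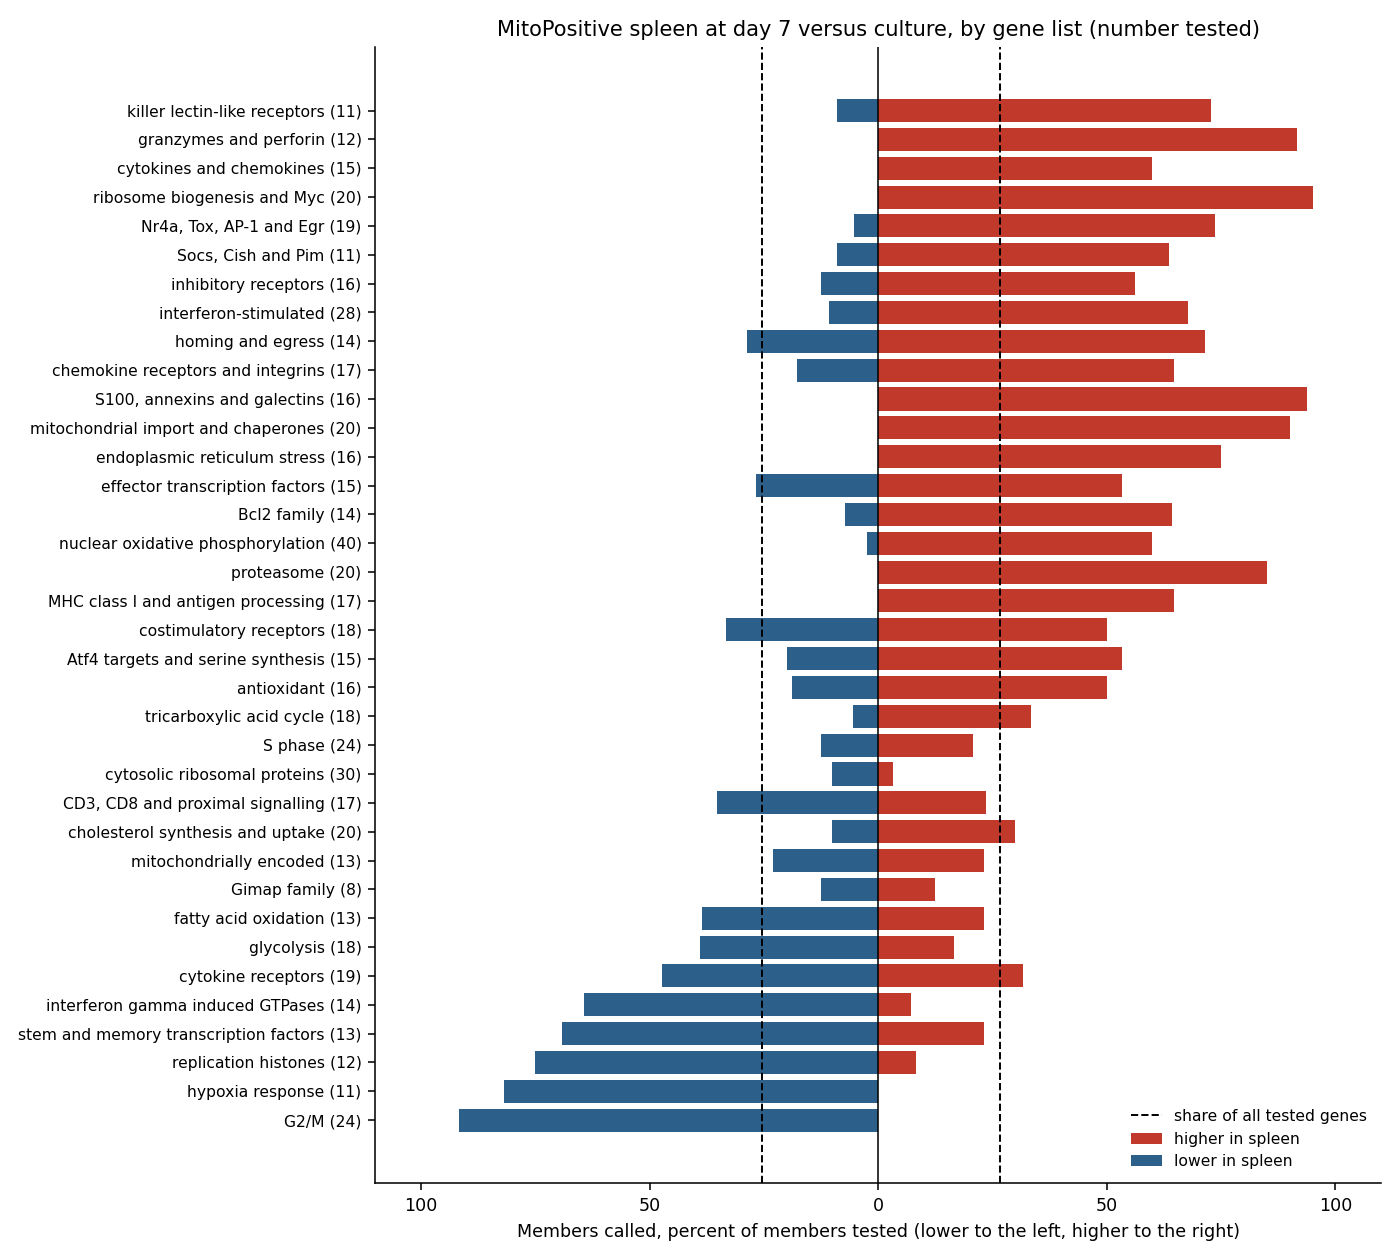
Share of the tested members of each gene group (rows, with the number tested) that was called higher in the MitoPositive spleen (red, to the right) or lower (blue, to the left) than in culture, in percent on the x axis, ordered by the group's median log2 fold change. The dashed lines mark the shares over all tested genes, 26.7% higher and 25.4% lower; killer lectin-like receptors, with a median of 3.64, are at the top and G2/M genes, with -1.22, at the bottom.

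Of 14 homing and egress genes tested, 10 rose and 4 fell in the spleen, with a median log2 fold change of 1.17, and 8 rose with the other hashtag key. Klf2 had 731, 605 and 741 CPM in the spleen samples of donors 1, 2 and 3, against 87.9, 47.4 and 27.9 CPM in culture. Every spleen sample exceeded every cultured one, and the log2 fold change was 3.80 ± 0.28 (SE, adjusted p = 8.8e-08, n = 3 samples per group in all edgeR tests). S1pr1, the egress receptor, had 312, 222 and 319.9 CPM in the spleen, against 154, 92.6 and 77.2 CPM in culture, again without overlap, a log2 fold change of 1.49 ± 0.20 (adjusted p = 2.3e-05). With the other hashtag key, Klf2 differed by 2.63 and S1pr1 by 0.77, and the call on S1pr1 was lost.

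S1pr5, the sphingosine-1-phosphate receptor of circulating killer cells, was nearly absent from culture. Its level was 13.3, 12.5 and 49.2 CPM in the spleen, against 0, 0 and 0.194 CPM in culture. These are 272 UMIs in the spleen and 2 UMIs in culture, a ratio of levels of 175 with a counting interval of 48.1 to 1455, and the groups did not overlap (adjusted p = 2.4e-07). Ccr7, the lymph node homing receptor, had 33.9, 54.2 and 30.8 CPM in the spleen, against 180.2, 159 and 142 CPM in culture. Its groups did not overlap, and it fell by 1.71 ± 0.17 on the log2 scale (adjusted p = 1.3e-06). Il7r, the interleukin-7 receptor chain of long-lived T cells, had 592, 463 and 501 CPM in the spleen and 569, 622 and 597 CPM in culture, overlapping groups with a log2 fold change of -0.08 ± 0.12 (adjusted p = 0.61).

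**Figure D2:**
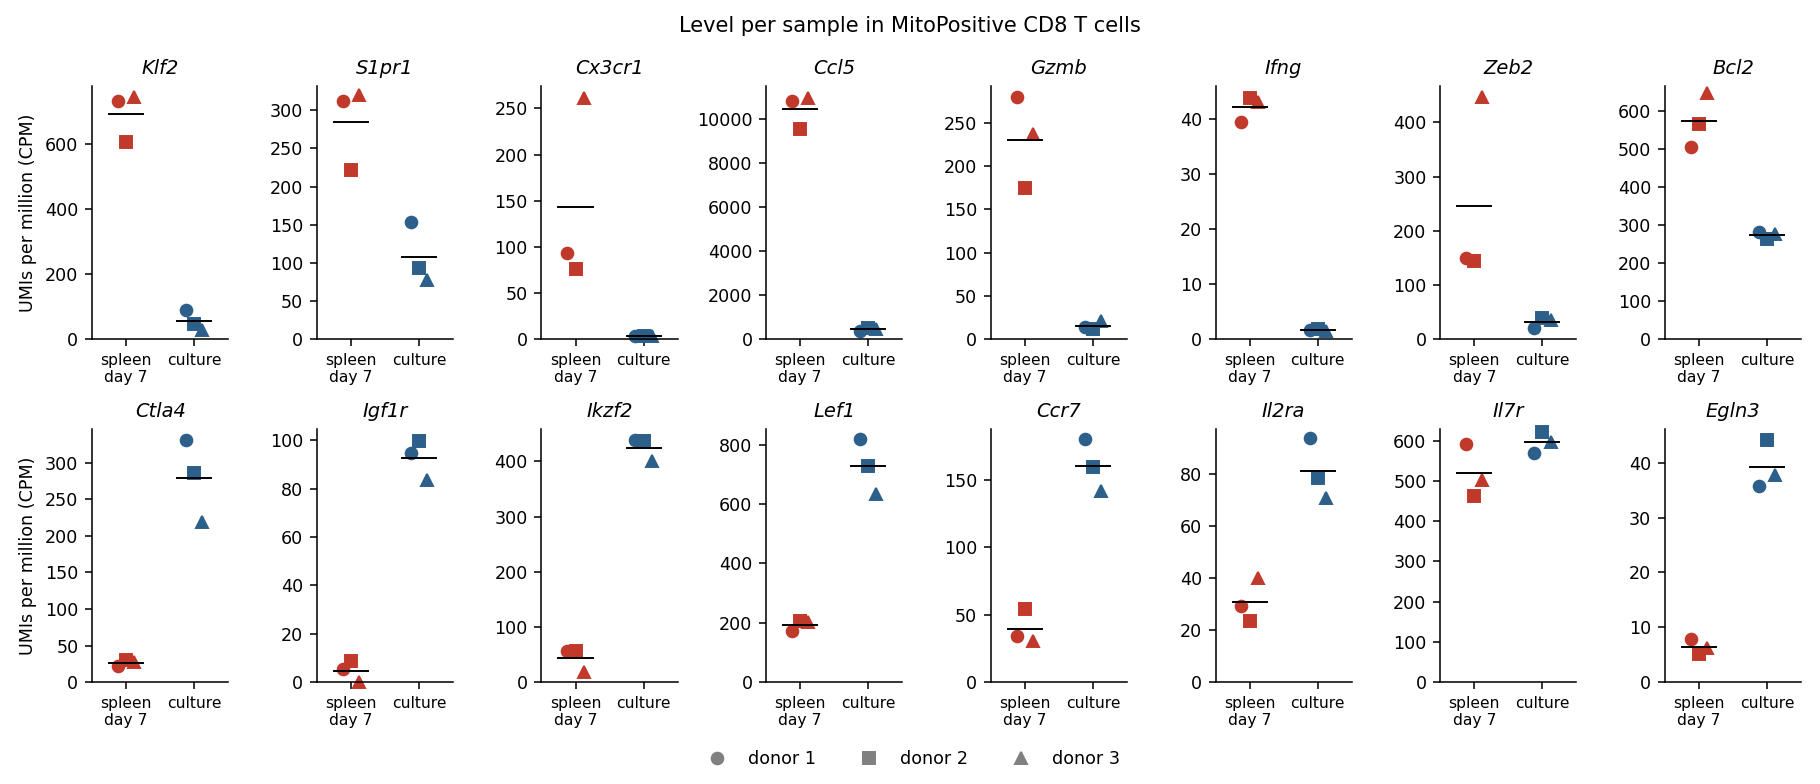
Level of 16 genes in each MitoPositive sample (y axis, CPM, from 0), with spleen samples left of cultured samples, 1 point shape per donor and a line at the group mean. The 8 genes of the upper row are higher in all 3 spleen samples than in any cultured sample, and all but Il7r in the lower row are lower in all 3; Il7r overlaps.

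The chemokine Ccl5, a ligand stored by memory CD8 T cells, had the highest level of the effector genes described here. It reached 10820, 9526 and 10958 CPM in the spleen, against 383, 522 and 448 CPM in culture, means of 10435 ± 790.0 and 451 ± 69.4 CPM (SD, n = 3 each). The lowest spleen sample was far above the highest cultured one, with a log2 fold change of 4.63 ± 0.17 (adjusted p = 1.4e-10). Of 15 cytokine and chemokine genes tested, 9 rose and none fell, with a median of 1.56. Ifng, the macrophage-activating interferon, had 39.5, 44.0 and 43.1 CPM in the spleen, against 1.56, 1.80 and 1.55 CPM in culture. It and the chemokine Ccl4, with 46.1 to 66.8 CPM in the spleen and 4.51 to 4.96 CPM in culture, had log2 fold changes of 4.81 ± 0.17 and 3.69 ± 0.17, while Tnfsf14, the TNF family ligand LIGHT, rose by 3.69 ± 0.33.

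Granzymes and their partners rose almost throughout, as 11 of 12 tested members were higher, none was lower and the median was 1.86. The summed level of the 16 listed genes was 4336, 3806 and 5452 CPM in the spleen, against 1415, 1605 and 1954 CPM in culture, without overlap (two-sided exact permutation p = 0.1, the smallest that 3 against 3 samples can give). Gzma, the tryptase-like granzyme, had 1309.6, 1093 and 2667 CPM in the spleen, against 191, 236 and 449.9 CPM in culture. Donor 3 was highest in both groups, and the log2 fold change was 2.56 ± 0.31 (adjusted p = 1e-05). Gzmb, the caspase-cleaving granzyme, had 279.7, 175 and 237 CPM in the spleen, against 14.4, 11.5 and 20.5 CPM in culture, a log2 fold change of 3.99 ± 0.20 (adjusted p = 3.4e-09). Prf1, perforin, had 44.4, 33.5 and 43.1 CPM in the spleen, against 8.78, 10.7 and 13.5 CPM in culture, a log2 fold change of 1.94 ± 0.17. Neither gene's groups overlapped, and Gzmm (4.25 ± 0.18), the granzyme inhibitor Serpinb6b (2.05 ± 0.13) and the cytotoxic granule protein Nkg7 (1.77 ± 0.13) rose as well.

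Killer lectin-like receptors, the mostly inhibitory or activating receptors for class I-like ligands that effector CD8 T cells share with natural killer (NK) cells, had the highest median of the groups other than cell type markers, 3.64. Of 11 tested members 8 rose, or 10 with the other hashtag key, and 1, Klra7, named after its value was seen, fell. Klrk1 (NKG2D), an activating receptor for stress ligands, had 442, 309 and 458 CPM in the spleen, against 41.8, 46.8 and 61.7 CPM in culture, and a log2 fold change of 3.08 ± 0.17 (adjusted p = 4.6e-09). Klre1 had 59.9, 62.7 and 120.0 CPM in the spleen, against 3.96, 6.88 and 6.22 CPM in culture, a change of 3.64 ± 0.18 (adjusted p = 3e-09). Both genes were above the cultured range in every spleen sample. Klrc1 (NKG2A) and Klrc2 (NKG2C), near-identical neighbours whose reads may be exchanged, rose by 4.12 ± 0.16 and 3.87 ± 0.20. Klrg1, a marker of terminal effector cells, was not counted in culture: its 188 spleen UMIs, at 8.79, 8.32 and 55.4 CPM, make it at least 80.8-fold higher against a floor of 3 UMIs over the cultured group. The 6 NK cell markers, of which Tyrobp is also a myeloid gene, summed to 74.9, 78.0 and 182 CPM in the spleen and to 9.70 to 14.4 CPM in culture, and their part in these values was not tested.

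Adhesion and chemokine receptors also shifted, with 11 of 17 tested members higher, 3 lower and a median of 1.11. Cx3cr1, the fractalkine receptor of cytotoxic cells that patrol vessels, had 93.4, 76.0 and 262 CPM in the spleen, against 3.11, 3.84 and 3.21 CPM in culture, and a log2 fold change of 5.01 ± 0.30 (adjusted p = 1.4e-08). The spleen values stood far above culture and varied more than 3-fold among donors. Ccr2, a receptor for inflammatory chemokines, had 209, 137 and 222 CPM in the spleen, against 18.1, 23.5 and 24.3 CPM in culture, a change of 3.14 ± 0.16. Itgb1, the beta-1 integrin, averaged 1000.0 ± 217 CPM in the spleen and 198 ± 29.6 CPM in culture (SD, n = 3 each), without overlap. Itgax, an integrin chain also used by dendritic cells, rose by 4.88 ± 0.36 and Cd44, the hyaluronan receptor of antigen-experienced T cells, by 1.11 ± 0.11.

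More transcription factors of effector cells rose than fell, and more of those of stem-like cells fell than rose. Of 15 effector factors tested, 8 rose and 4 fell (median 0.56), and of 13 stem and memory factors 3 rose and 9 fell (median -0.87), or 1 and 9 with the other hashtag key. The effector factors summed to 2306 ± 441 CPM in the spleen and 2314 ± 57.3 CPM in culture (SD, n = 3 each), with overlap. The stem and memory factors summed to 2695 ± 268 CPM in the spleen and 5844 ± 782 CPM in culture. Tbx21 (T-bet) had 117, 119 and 218 CPM in the spleen, against 35.7, 38.8 and 39.4 CPM in culture, a log2 fold change of 1.90 ± 0.13 (adjusted p = 6.1e-08). Zeb2, which acts with T-bet in terminal effector cells, had 149, 144 and 446 CPM in the spleen, against 19.7, 38.8 and 35.8 CPM in culture, a change of 2.69 ± 0.30 (adjusted p = 4.2e-06). In both, donor 3's spleen sample was the highest and no sample of either group overlapped. Zbtb32, a zinc finger repressor, rose by 4.25 ± 0.31, while Batf3 fell by 4.12 ± 0.42 and Ikzf2 (Helios) fell by 2.84 ± 0.16.

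Lef1, a partner of Tcf7 in naive and stem-like T cells, had 171, 206 and 203 CPM in the spleen, against 820.3, 726 and 634 CPM in culture, and fell by 1.79 ± 0.13 on the log2 scale (adjusted p = 6.2e-08). Tcf7 itself had 247, 236 and 249 CPM in the spleen, against 491, 417 and 329 CPM in culture, and fell by 0.63 ± 0.13 (adjusted p = 0.00094). The drop of Tcf7 was smaller than that of Lef1, and neither gene's groups overlapped. The chromatin organiser Satb1, with 304 to 374 CPM in the spleen and 930.2 to 1019 CPM in culture, fell by 1.40 ± 0.12, Myb by 2.75 ± 0.23 and Klf7 by 1.12 ± 0.11. Eomes, a T-box factor of memory cells, moved against the group, with 25.8, 17.8 and 30.8 CPM in the spleen, against 6.23, 9.25 and 13.8 CPM in culture, and a log2 fold change of 1.28 ± 0.24 (adjusted p = 0.00054).

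Among receptors for cytokines, both chains of the interleukin-18 receptor rose, while those for interleukin-2 were split by chain. Of the interleukin-12 receptor chains only Il12rb2 was called, as lower. Of 19 tested, 6 rose and 9 fell (median -0.23). Il18r1 had 396, 293 and 443 CPM in the spleen, against 48.7, 55.2 and 46.9 CPM in culture, a log2 fold change of 2.98 ± 0.13, and its partner chain Il18rap rose by 2.23 ± 0.17. Il2ra (CD25), which makes the interleukin-2 receptor high-affinity, had 29.4, 23.5 and 40.0 CPM in the spleen, against 94.0, 78.6 and 70.8 CPM in culture, and fell by 1.44 ± 0.13 (adjusted p = 6.8e-07). Il12rb2, the signalling chain for interleukin-12, fell by 2.02 ± 0.14, and Il6ra rose by 2.20 ± 0.16. Between the groups, none of these overlapped. Il2rb, the signalling chain shared by the receptors for interleukin-2 and interleukin-15 and named after its value was seen, rose by 0.91 ± 0.12, and the partner chains Il2rg (0.094 ± 0.10) and Il12rb1 (-0.23 ± 0.21) were not called.

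Of 16 inhibitory receptors tested, 9 rose and 2 fell (median 1.22). Pdcd1 (PD-1) was low in both groups, with 12.002, 11.5 and 15.4 CPM in the spleen, against 2.27, 4.17 and 3.79 CPM in culture, a log2 fold change of 1.92 ± 0.23 (adjusted p = 1.1e-05). Entpd1 (CD39), which degrades extracellular ATP, had 44.8, 43.0 and 64.6 CPM in the spleen, against 10.2, 15.1 and 15.8 CPM in culture, a change of 1.84 ± 0.15. Ctla4 went the other way, with 22.1, 30.1 and 27.7 CPM in the spleen, against 331, 286 and 219 CPM in culture, and fell by 3.23 ± 0.17 (adjusted p = 4e-09). Every spleen value of these 3 genes lay outside the cultured range. Lilrb4a, an inhibitory receptor also found on myeloid cells, rose by 4.32 ± 0.23 and Btla, a receptor for the TNF receptor family member HVEM, by 2.69 ± 0.19. Of 18 costimulatory receptors and their relatives, 9 rose and 6 fell (median 0.35), among them Cd40lg (4.51 ± 0.31), the adhesion molecules Slamf7 (2.36 ± 0.17) and Cd48 (1.67 ± 0.13) upward and Tnfrsf13b (-1.19 ± 0.14) downward. With the other hashtag key, 3 of 17 tested fell.

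Genes of the T cell receptor complex and its early signalling steps moved both ways, while their summed level was lower in the spleen. Of 17 genes tested, 4 rose and 6 fell, and the median was 0.00. The 18 listed genes summed to 13697, 11895 and 11998 CPM in the spleen, against 17970, 15983 and 15227 CPM in culture, without overlap (two-sided exact permutation p = 0.1, the smallest possible). The constant segment Trbc2 fell by 0.57 ± 0.16 and the coreceptor Cd8a by 0.26 ± 0.10, the last with 364, 353 and 391 CPM in the spleen, against 509, 460.2 and 458 CPM in culture (adjusted p = 0.044). Donor as a replicate block took the call from Cd8a. The kinases Txk (1.05 ± 0.17) and Zap70 (0.46 ± 0.09) and the adaptor Lat (0.58 ± 0.12) rose. With the other hashtag key 2 of the 17 genes rose and the call on Txk was lost.

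Genes induced by signals through antigen and cytokine receptors were higher in the spleen. Of 19 tested immediate early and related genes, 14 rose and 1, Tox, named after its value was seen, fell, with a median of 1.25 that became 0.64 without donor 2's spleen sample. Nr4a1 (Nur77), an early target of T cell receptor signals, had 7.40, 14.9 and 12.3 CPM in the spleen, against 0.566, 0.677 and 0.292 CPM in culture, a log2 fold change of 4.64 ± 0.40 (adjusted p = 3.9e-07). Egr3 rose by 4.36 ± 0.46, Ier2 by 1.41 ± 0.11 and Zfp36, which marks messenger RNAs for decay, by 1.39 ± 0.16. Of the 12 genes listed as induced by tissue dissociation, several of which are immediate early genes too, 7 of 9 tested rose, and their summed level was 523, 725 and 591 CPM in the spleen and 301 to 319 CPM in culture. Their part in the immediate early group was not tested.

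Feedback regulators of cytokine signalling rose in 7 of 11 tested members and fell in 1 (median 1.24). Cish, an inhibitor induced by signal transducer Stat5, had 56.7, 50.2 and 49.2 CPM in the spleen, against 6.23, 9.02 and 9.43 CPM in culture, a log2 fold change of 2.81 ± 0.15 (adjusted p = 3.8e-09). Every spleen sample exceeded the cultured range, as was also so for the phosphatase Dusp5 (2.52 ± 0.14), the kinase Pim1 (1.76 ± 0.14) and Socs2 (1.57 ± 0.15). Cish was higher although Il2ra, the receptor chain named above, was lower.

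The interferon genes divided by family. Of 28 interferon-stimulated genes tested, 19 rose and 3 fell (median 1.20). Isg20 and Ifi209, named after their values were seen, were among those that fell. Isg15, a ubiquitin-like antiviral protein, had 98.7, 103 and 129 CPM in the spleen, against 21.2, 23.8 and 26.4 CPM in culture, a log2 fold change of 2.25 ± 0.11 (adjusted p = 2.5e-09). Its neighbours in function Ifit3 (2.56 ± 0.14), Oas1a (3.96 ± 0.23) and Slfn5 (3.20 ± 0.17) rose too. Of 14 GTPases induced by interferon gamma, in contrast, 1 rose and 9 fell (median -0.75). Iigp1, which attacks the vacuoles of intracellular parasites, had 44.9, 31.4 and 33.8 CPM in the spleen, against 169.6, 236 and 196 CPM in culture, and fell by 2.27 ± 0.16 (adjusted p = 5.4e-08). Igtp fell by 0.95 ± 0.11, Gbp2 by 0.90 ± 0.11 and Tgtp2, which has a near-identical copy, by 1.18 ± 0.13, although Ifng itself was higher. Of 17 genes of class I antigen presentation, 11 rose and none fell (median 0.37), among them the proteasome activator Psme2 (0.97 ± 0.11) and H2-Q7 (1.24 ± 0.13), whose reads may belong in part to H2-Q6.

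The nuclear and the mitochondrial genes of the respiratory chain moved differently. Of 40 nuclear genes for oxidative phosphorylation, 24 rose and 1, Cox4i1, named after its value was seen, fell, with a median of 0.44, and among T cells alone 28 rose. Their summed level was 10352, 10850 and 9832 CPM in the spleen, against 8185, 8463 and 9239 CPM in culture, without overlap (two-sided exact permutation p = 0.1, the smallest possible). Ndufa4, a subunit associated with complex IV, had 534, 554 and 461 CPM in the spleen, against 176, 194 and 208 CPM in culture, a log2 fold change of 1.56 ± 0.13 (adjusted p = 2.2e-07). Cycs, the electron carrier cytochrome c, rose by 1.86 ± 0.15, Atp5g1, a subunit of the ATP synthase rotor, by 1.45 ± 0.14, and Uqcrq of complex III by 0.87 ± 0.11.

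The 13 mitochondrially encoded genes together took 2.25%, 2.16% and 1.83% of UMIs in the spleen, against 2.68%, 2.72% and 2.65% in culture, means of 2.08% ± 0.224 and 2.68% ± 0.037 (SD, n = 3 each). The share was lower in the spleen of 3 of 3 donors (two-sided exact permutation p = 0.1). The difference was -0.601 points, or -0.729 points without the limit of 15% on cells, and -0.231 points among cells whose only Trbv UMIs were of Trbv14. The group held 3 rising and 3 falling members (median -0.08), and among T cells alone 3 rose and 6 fell (median -0.29). mt-Co1, the catalytic subunit of complex IV, had 5067, 5059.8 and 4119 CPM in the spleen, against 9984, 9464 and 8716 CPM in culture, a decrease of 0.87 ± 0.15 on the log2 scale (adjusted p = 0.00026). mt-Nd6 fell by 1.01 ± 0.12. mt-Atp8 (2.64 ± 0.13) and mt-Nd4l (1.49 ± 0.13) rose, but each overlaps a longer neighbour, mt-Atp6 and mt-Nd4, so their reads cannot be told apart from it. The share was also lower in the MitoNegative spleen, 2.03% ± 0.095 against 2.54% ± 0.133 in MitoNegative culture (SD, n = 3 each; two-sided exact permutation p = 0.1). Of the 13 genes, 0 were called in the difference between arms. These genes do not separate the T cell's own mitochondrial genome from one received from BMSCs.

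**Figure D3:**
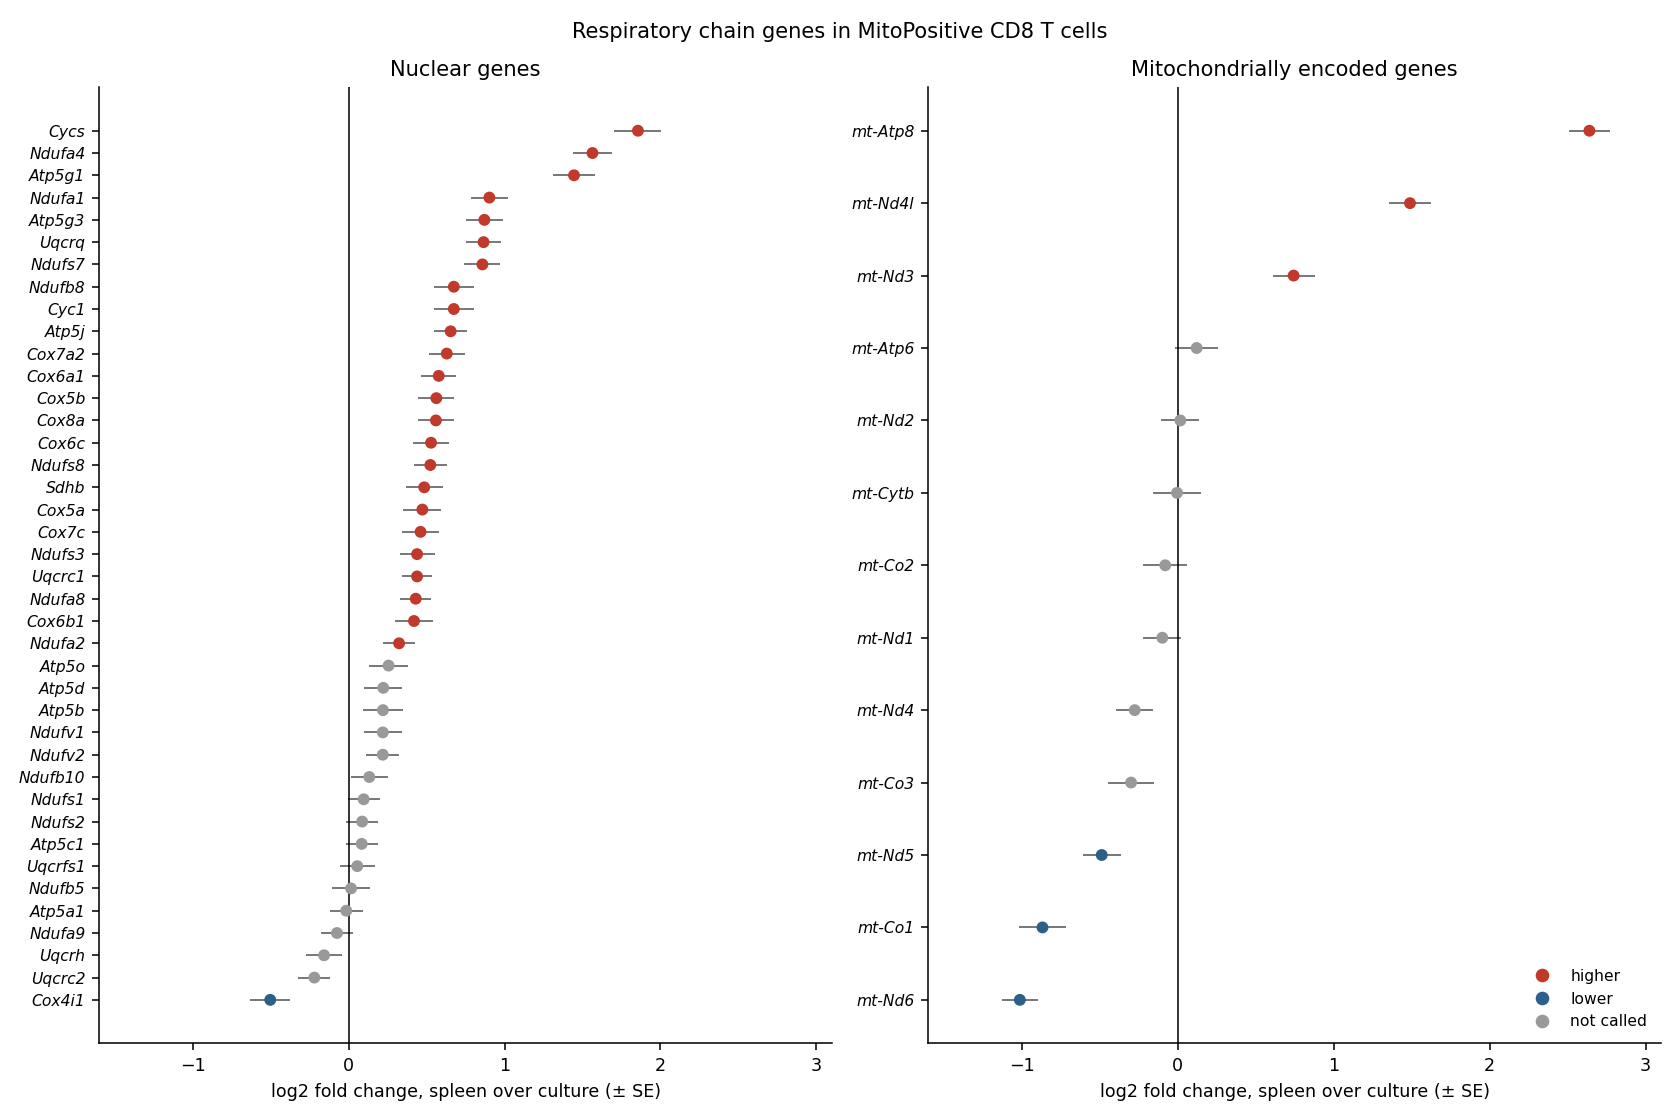
Log2 fold change, spleen over culture, in MitoPositive cells of the 40 nuclear oxidative phosphorylation genes (left) and the 13 mitochondrially encoded genes (right), 1 point per gene with a bar of 1 SE on the x axis, coloured by whether the gene was called higher, lower or not called. Of the nuclear genes 24 were called higher and 1 lower, whereas the mitochondrially encoded genes had 3 called each way with all cells kept.

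Genes that build mitochondria and ribosomes rose together. Of 20 mitochondrial import and chaperone genes, 18 rose and none fell, with a median of 0.96. Hspd1, the mitochondrial chaperonin HSP60, had 139, 135 and 126 CPM in the spleen, against 57.8, 63.7 and 63.0 CPM in culture, a log2 fold change of 1.28 ± 0.10 (adjusted p = 1.3e-07). The groups were well apart, and Phb (prohibitin, 1.61 ± 0.12), Timm10 (1.72 ± 0.14) and Timm8a1 (1.88 ± 0.16), small carriers between the membranes, rose further. Of 20 ribosome biogenesis and Myc target genes, 19 rose and none fell, with a median of 1.26. Myc had 38.9, 45.0 and 55.4 CPM in the spleen, against 21.1, 18.9 and 21.0 CPM in culture, a change of 1.23 ± 0.12 (adjusted p = 1e-06). The spermidine synthase Srm (2.36 ± 0.21) and the nucleolar proteins Rrp9 (1.96 ± 0.17), Mybbp1a (1.57 ± 0.14) and Nhp2 (1.40 ± 0.13) rose, while cytosolic ribosomal proteins stayed near the median of all genes, with 1 of 30 higher, 3 lower and a median of 0.07. Of these 30, 5 were higher among T cells alone and 4 with the other hashtag key. Of 20 proteasome genes, 17 rose and none fell (median 0.43), including Psmb5 (1.06 ± 0.12) and the activator subunit Psme3 (0.90 ± 0.11).

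The hypoxia response was lower in the spleen. Of 11 genes tested, 9 fell and none rose, with a median of -1.04 (7 of 10 fell with the other hashtag key), and the summed level was 265, 257 and 237 CPM in the spleen, against 549, 575 and 489 CPM in culture. Hif1a, the oxygen-regulated transcription factor, had 95.7, 91.6 and 95.4 CPM in the spleen, against 219, 229.7 and 193 CPM in culture, and fell by 1.04 ± 0.10 (adjusted p = 1.4e-06). Its targets Egln3, an oxygen sensor, Ankrd37 and Mxi1 fell by 2.51 ± 0.17, 1.75 ± 0.23 and 1.09 ± 0.13. None of these 4 genes had overlapping groups.

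Central carbon metabolism shifted gene by gene. Of 18 glycolysis genes, 3 rose and 7 fell (median -0.19). Those that rose, named after their values were seen, were Eno1 (0.44 ± 0.11), Ldha (0.43 ± 0.13) and Pgam1 (0.37 ± 0.10). Pdk1, the kinase that keeps pyruvate out of mitochondria, had 32.4, 36.9 and 52.3 CPM in the spleen, against 144, 131 and 105 CPM in culture, and fell by 1.67 ± 0.13 (adjusted p = 1.4e-07). Gapdh fell by 0.62 ± 0.12, the glucose transporter Slc2a3 by 0.91 ± 0.11, and the lactate exporter Slc16a3 fell by 1.498 ± 0.29, the last with overlapping groups and no call at the same weight for each sample. Of 18 tricarboxylic acid cycle genes, 6 rose and 1 fell (median 0.13), with Idh3a at 0.77 ± 0.11. Fatty acid oxidation had 3 of 13 genes higher and 5 lower (median -0.16), where Etfb rose by 0.98 ± 0.12 and Hadha fell by 0.34 ± 0.09. Under the other hashtag key 2 of the 13 fell and Hadha was not called. Of 20 cholesterol genes, 6 rose and 2 fell (median -0.01). The desaturase Scd2, listed with them, fell by 1.96 ± 0.16 and Mvd of the mevalonate pathway rose by 1.25 ± 0.19.

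Of 16 endoplasmic reticulum stress genes, 12 rose and none fell (median 0.66). Hspa5 (BiP), the main chaperone of that compartment, had 172, 167 and 194 CPM in the spleen, against 103, 113.4 and 111 CPM in culture, a log2 fold change of 0.80 ± 0.09 (adjusted p = 8.5e-06). Pdia4 (1.27 ± 0.09) and Sdf2l1 (1.09 ± 0.11), which assist folding there, rose as well. Of 15 targets of Atf4 and serine synthesis genes, 8 rose and 3 fell (median 0.30), with Atf4 itself at 0.87 ± 0.11 and the pseudokinase Trib3 lower, at 0.977, 1.40 and 0 CPM in the spleen, against 16.0, 9.25 and 5.64 CPM in culture. Of 16 antioxidant genes, 8 rose and 3 fell (median 0.21). The peroxidase Prdx1 had 391, 407 and 391 CPM in the spleen, against 147, 173 and 184 CPM in culture (1.36 ± 0.12), and Gclm, which helps make glutathione, fell by 0.85 ± 0.11.

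Bcl2 family genes, which act for or against cell survival, were mostly higher, whereas Gimap genes were not. Of 14 Bcl2 family genes, 9 rose and 1 fell (median 0.54), and both protective and death-promoting members were among those that rose. Bcl2 had 504, 565 and 646 CPM in the spleen, against 280.5, 262 and 277 CPM in culture, a log2 fold change of 1.15 ± 0.11 (adjusted p = 7.8e-07). Bcl2l1 (Bcl-xL) rose by 1.36 ± 0.12 and Bcl2a1b, which has near-identical copies, by 1.60 ± 0.16. Of 16 S100, annexin and galectin genes, 15 rose and none fell (median 1.02). S100a4, a calcium-binding protein of migrating effector and memory cells, had 1949.6, 1256 and 1544 CPM in the spleen, against 153, 209.9 and 287 CPM in culture, a change of 2.97 ± 0.22 (adjusted p = 8.8e-08). Anxa2 (1.41 ± 0.15) and Emp3 (1.11 ± 0.11) rose, too. Of the 8 Gimap genes, GTPases of lymphocyte survival, 1 rose and 1 fell: Gimap9 by 0.33 ± 0.10 and Gimap4 by -0.28 ± 0.11. The call on Gimap4 was lost with donor as a replicate block and at the same weight for each sample.

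Cell cycle genes gave a result that depends on donor 3. Of 24 G2/M genes, 22 fell in the spleen and none rose (median -1.22), but only 4 of them fell in all 3 donors. Without Hmgb2, which is also abundant outside mitosis, the list summed to 324, 406 and 1717 CPM in the spleen, against 764, 1059 and 1224 CPM in culture (two-sided exact permutation p = 0.8). Donors 1 and 2 were below the cultured range and donor 3 was above it. In donor 3's spleen sample of 50 cells, 3 cells held 92.8% of the 558 G2/M UMIs, whereas the top 3 cells held 13.1% to 17.6% in the other spleen samples. No G2/M gene was called when samples weighed the same, 23 fell without donor 3's spleen sample, 16 fell among T cells alone, and 1 fell with the other hashtag key.

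Mki67, the antigen Ki-67 of dividing cells, had 31.8, 33.6 and 95.4 CPM in the spleen, against 61.7, 85.05 and 86.0 CPM in culture, overlapping groups with a log2 fold change of -0.97 ± 0.19 (adjusted p = 0.00074). Cdc20, an activator of mitotic exit, fell by 1.76 ± 0.25, Ccnb1 (cyclin B1) by 1.77 ± 0.31, Ccnb2 by 1.51 ± 0.28 and the spindle protein Tpx2 by 1.47 ± 0.23, also with overlap. Mki67 and these 4 genes lost their calls in DESeq2 and at the same weight for each sample, and all but Cdc20 with the other hashtag key. Of 12 replication histones, 9 fell and 1 rose (median -0.96), with Hist1h3c at 4.05, 4.20 and 18.5 CPM in the spleen, against 20.8, 24.6 and 19.8 CPM in culture. Histone messages lack long poly(A) tails and their copies are near identical, so these levels are uncertain. With the other hashtag key 4 of the histones fell. Hist1h2ab and Hist2h2ac fell by 2.41 ± 0.28 and 1.10 ± 0.15.

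S phase genes did not follow, as 5 of 24 rose and 3 fell (median 0.12). Among T cells alone 8 rose and 2 fell, and with the other hashtag key 6 rose and none fell. Pcna, the sliding clamp of DNA polymerase, had 85.3, 87.1 and 67.7 CPM in the spleen, against 55.4, 55.9 and 64.5 CPM in culture, a log2 fold change of 0.67 ± 0.11 (adjusted p = 0.00017). Cdt1, which licenses replication origins, rose by 1.17 ± 0.15 and the helicase subunit Mcm2 by 0.99 ± 0.18. After each cell was thinned to 2000 UMIs, leaving out 98, 120 and 1 shallower spleen cells and 229, 141 and 118 cultured cells, 42.1%, 35.9% and 40.8% of spleen cells and 32.1%, 36.1% and 33.1% of cultured cells had at least 3 UMIs of the S phase and G2/M lists. The means were 39.6% ± 3.26 and 33.7% ± 2.07 (SD, n = 3 each; two-sided exact permutation p = 0.2), and before thinning they were 83.4% ± 5.65 and 72.9% ± 5.59. Without Hmgb2 the shares were 13.5% ± 1.17 in the spleen and 14.1% ± 1.74 in culture (exact permutation p = 0.7). With Hmgb2 and a minimum of 5 UMIs they were 16.2% ± 3.63 in the spleen and 12.4% ± 1.29 in culture, higher in the spleen of 3 of 3 donors (exact permutation p = 0.1, the smallest possible). The direction of the means thus depended on whether Hmgb2 was counted.

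**Figure D4:**
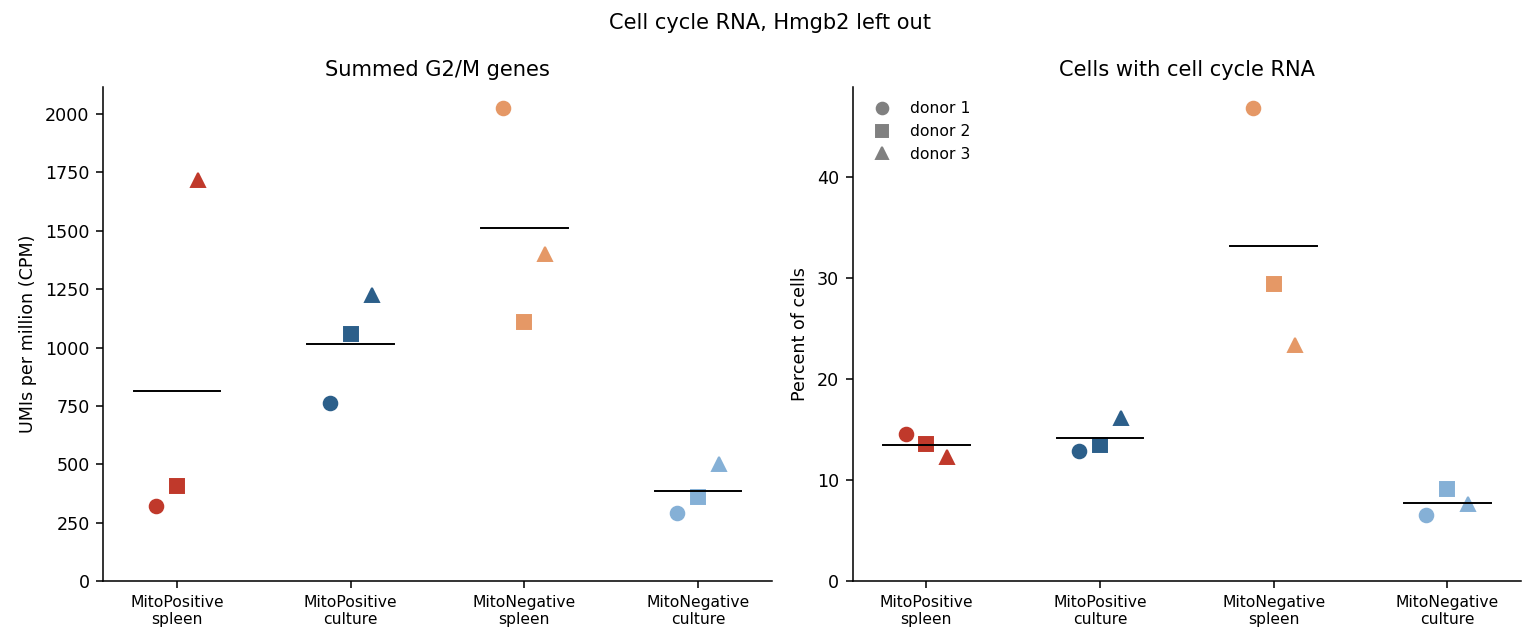
Summed level of the G2/M genes without Hmgb2 (left, CPM) and share of cells with at least 3 UMIs of the cell cycle lists without Hmgb2 after thinning to 2000 UMIs per cell (right, percent), 1 point per sample with a line at the group mean. In the left panel the MitoPositive spleen samples of donors 1 and 2 lie below MitoPositive culture and donor 3 above it, while MitoNegative spleen samples lie above MitoNegative culture in both panels.

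The genes with the largest changes, among those at 50 CPM or more in the higher group and moving alike in 3 donors, mixed T cell genes with those of other cells. Dtx1, a Notch-induced regulator of T cell activation, had 85.1, 82.6 and 64.6 CPM in the spleen, against 0.708, 0.338 and 0.389 CPM in culture, a log2 fold change of 7.58 ± 0.20 (adjusted p = 7.2e-12). Rap1gap2, a regulator of the small GTPase Rap1, had 179, 129 and 305 CPM in the spleen, against 4.53, 3.27 and 1.75 CPM in culture (5.95 ± 0.26). In both, each spleen sample was far above culture. The galectin Lgals3, which macrophages also make, rose by 4.35 ± 0.26. Hmox1, heme oxygenase, rose by 4.77 ± 0.21, and by 2.12 among T cells alone.

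The neutrophil genes S100a8 and S100a9 had 101, 425 and 129 CPM and 133, 483 and 240.0 CPM in the spleen, and 0 and 1 UMI in all cultured samples. S100a8 was at least 2678-fold higher against the floor of 3 UMIs. Cd74, the class II invariant chain, rose by 5.72 ± 0.19, and by 3.18 among T cells alone. The macrophage lysozyme Lyz2 had 10.6, 12.8 and 517 CPM in the spleen, against 0.708, 0 and 0 CPM in culture, with donor 3's 50 cells far above the other samples, and its log2 fold change of 8.44 ± 1.90 was 6.00 without that sample. The myeloid genes C1qa, Apoe and Tyrobp, at 25.8 to 46.1, 32.7 to 40.0 and 39.4 to 142 CPM in the spleen, had 0, 0.451 to 0.708 and 0.226 to 5.24 CPM in culture. These are known as genes of other cells, and the part of such cells in the changes of other genes was not tested.

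At the other end stood genes with a far higher level in culture. Igf1r, the insulin-like growth factor receptor, had 5.58, 8.71 and 0 CPM in the spleen, against 94.6, 99.7 and 83.7 CPM in culture, and fell by 3.50 ± 0.18 on the log2 scale (adjusted p = 3e-09). Ssbp2 had 67.5, 80.8 and 108 CPM in the spleen, against 683, 726 and 576 CPM in culture, and fell by 2.94 ± 0.14. Pde3b, a phosphodiesterase that breaks down cyclic AMP, had 202, 241 and 243 CPM in the spleen, against 1128, 1156 and 949.9 CPM in culture, and fell by 2.13 ± 0.13. All 3 had groups without overlap. Pmepa1 and Tgfbr3, both of TGF-beta signalling, fell by 2.98 ± 0.16 and 2.14 ± 0.12, and Wdr78, Ift80 and Kdm4d by 2.65 ± 0.16, 2.61 ± 0.16 and 2.21 ± 0.11.

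The MitoNegative arm, whose cells met the same culture, day and libraries, gave the test of what differed for MitoPositive cells. In MitoNegative cells 32.1% of 11444 genes were higher in the spleen and 30.2% were lower. The difference between the arms' changes was past the threshold for 1010 of 12330 genes (8.19%), with 366 (2.97%) higher and 644 (5.22%) lower in the MitoPositive arm. Low-cycling cells were those with at least 2000 UMIs and, after thinning to 2000, under 3 UMIs of the cell cycle lists, Hmgb2 included. Among low-cycling cells alone, 119 genes were called, 59 higher and 60 lower. Fewer cells were left there, 29 of them in donor 3's MitoPositive spleen sample. With the other hashtag key for the cultured samples 16 genes were called, 14 higher and 2 lower, so each difference between arms given below holds for the odd-numbered key; of the 48 named genes that were called, 1, Il2ra, was called under the other key as well, with 47 in the same direction. Leaving out 1 sample moved the count of 1010 by over 1.5 times in 4 cases, to 640 or 628 without the MitoPositive cultured sample of donor 2 or 3, to 670 without the MitoNegative cultured sample of donor 1, and to 2120 without the MitoNegative spleen sample of donor 3. The arms also went into different recipients at day 7, and their Trbv14 shares in the spleen, given at the end, did not overlap.

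**Figure D5:**
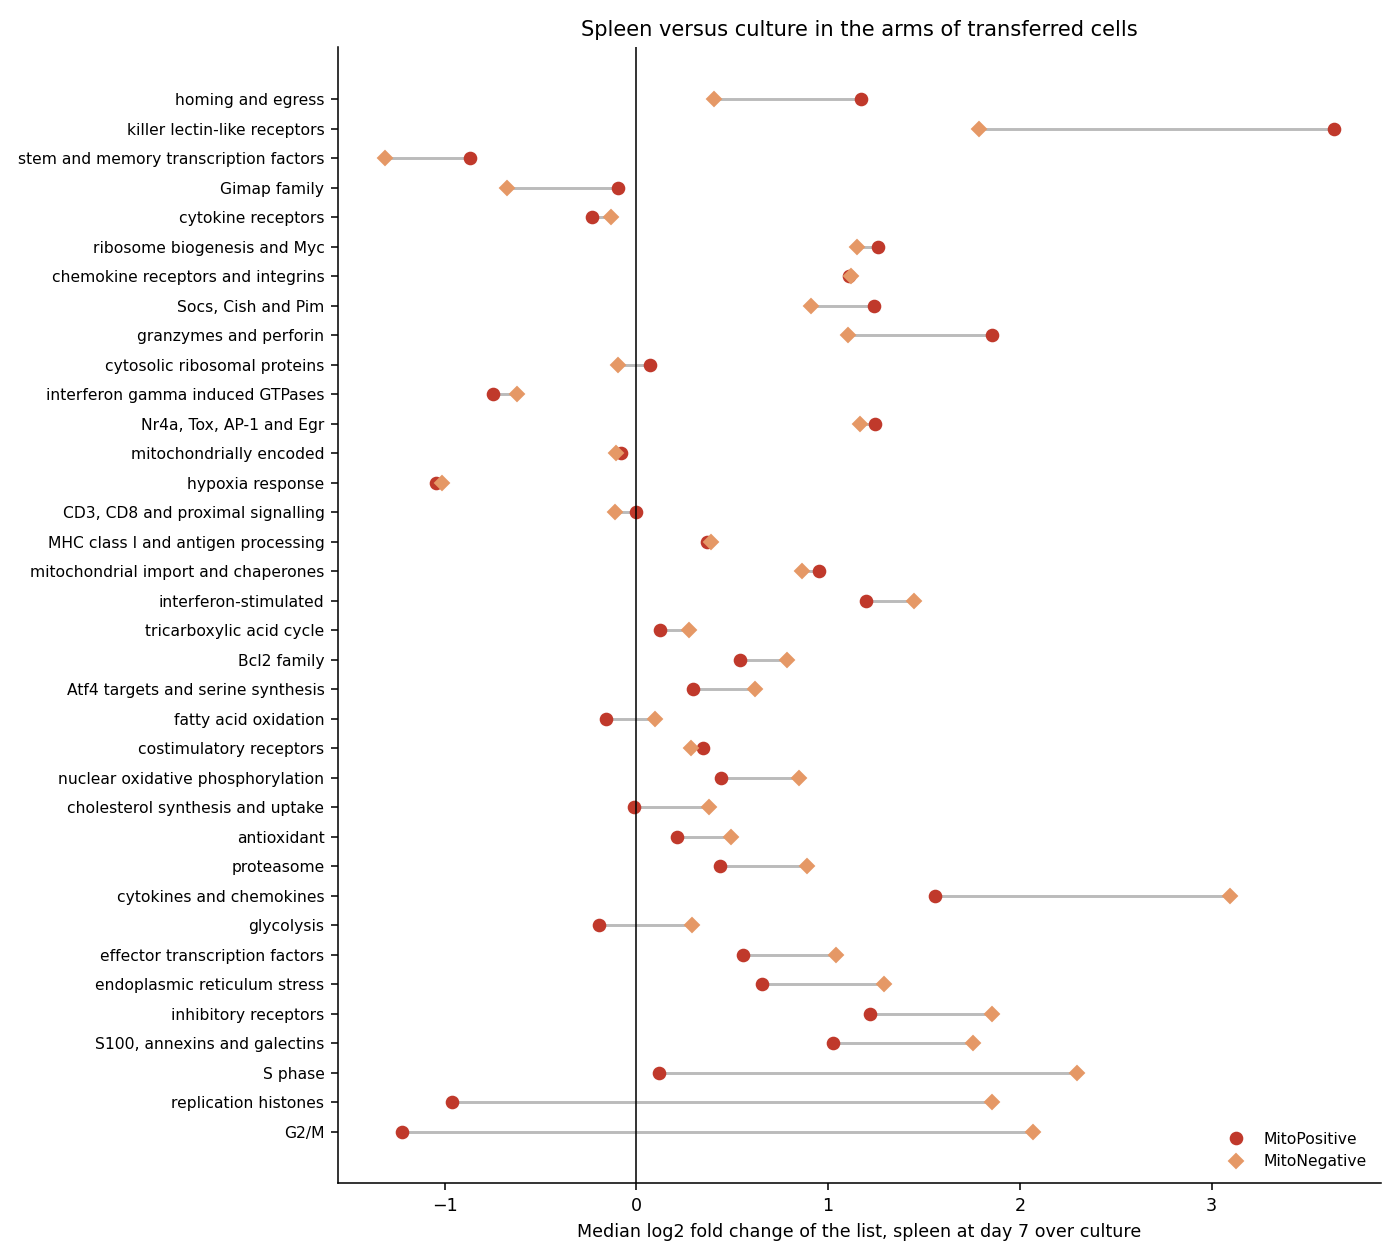
Median log2 fold change, spleen over culture, of each gene group (rows) in the MitoPositive arm (red circles) and the MitoNegative arm (orange diamonds), on the x axis. The arms lie furthest apart in G2/M genes, with -1.22 in the MitoPositive and 2.07 in the MitoNegative arm, followed by replication histones, with -0.96 and 1.85, and S phase genes, with 0.12 and 2.30; the MitoPositive circle is to the right for homing and egress.

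The medians of the arms lay furthest apart in the cell cycle. All 24 G2/M genes and 21 of 24 S phase genes had a lower change in the MitoPositive than in the MitoNegative arm, where the medians were 2.07 and 2.30. Mki67 had 178, 93.4 and 115 CPM in MitoNegative spleen samples, against 20.1, 21.3 and 34.3 CPM in MitoNegative culture, and the difference between arms was -3.44 ± 0.42 (adjusted p = 0.00022). The condensin subunits Ncapg2 (-4.09 ± 0.36) and Ncaph (-3.81 ± 0.39) and the histone Hist1h3c (-4.50 ± 0.53) went the same way. The cycling share without Hmgb2 was 33.2% ± 12.2 in the MitoNegative spleen and 7.75% ± 1.27 in MitoNegative culture (SD, n = 3 each; two-sided exact permutation p = 0.1). In culture, the G2/M sum without Hmgb2 was 764 to 1224 CPM in MitoPositive samples and 291 to 502 CPM in MitoNegative samples.

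In homing and egress genes the MitoPositive change was the higher, in 8 of 14 tested and lower in none. Klf2 had 547, 584 and 526 CPM in MitoNegative spleen samples, against 223, 179 and 138 CPM in MitoNegative culture, so the spleen levels of the arms were closer in ratio than the cultured levels, and the difference between arms was 2.03 ± 0.39 (adjusted p = 0.0041). S1pr1 (1.22 ± 0.30) differed likewise. Of the stem and memory factors 7 of 13 had the higher change in the MitoPositive arm, Lef1 (1.26 ± 0.35), Satb1 (1.35 ± 0.27) and Eomes (1.32 ± 0.35) among them, and of the Gimap genes 6 of 8. Lef1 and Satb1 fell in both arms, by less in the MitoPositive arm. Bcl2 had 170.2, 287 and 322 CPM in MitoNegative spleen samples, against 291, 287 and 333 CPM in MitoNegative culture, a difference between arms of 1.27 ± 0.23 (adjusted p = 0.0023).

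Klre1 had 13.9, 19.5 and 25.2 CPM in MitoNegative spleen samples, against 11.2, 10.3 and 13.8 CPM in MitoNegative culture, and the difference was 2.89 ± 0.33 (adjusted p = 0.00016). Art2b, an ADP-ribosyltransferase of the T cell surface, was higher in the MitoPositive spleen (53.3, 53.2 and 36.9 CPM) than in MitoPositive culture (33.4, 28.3 and 20.5 CPM), but had 7.78, 15.6 and 16.7 CPM in the MitoNegative spleen, against 63.6, 60.1 and 57.7 CPM in MitoNegative culture. That difference of 3.26 ± 0.31 (adjusted p = 0.00011), like that of the phosphodiesterase Pde2a (3.51 ± 0.38), came from opposite directions in the arms, although the calls within the MitoPositive arm were lost for both genes with the other key. Ms4a4c (1.78 ± 0.15), Ccl5 (1.91 ± 0.32), Itgax (2.79 ± 0.56), Entpd1 (2.13 ± 0.38) and Il2ra (1.42 ± 0.23) also had the higher change in the MitoPositive arm. Of these, Il2ra fell in both arms, by less in the MitoPositive arm. The changes of Pdcd1 (-2.61 ± 0.51), S100a4 (-1.85 ± 0.38) and the long noncoding RNA Morrbid (-2.46 ± 0.25) were lower in it, as were those of 9 of 16 S100, annexin and galectin genes, 6 of 16 endoplasmic reticulum stress genes and 6 of 40 nuclear oxidative phosphorylation genes. Pdcd1, S100a4 and Morrbid rose in both arms.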

How the data were processed

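Per the file headers and the labels, the authors deposited 4 droplet libraries as matrices of UMI counts for 32285 genes and for the hashtags, with a list that assigns each hashtag to a donor mouse, tissue and arm. Cell Ranger 7.0.0 and Seurat 4.0.5 are the tools, and mm10 and GRCm38 the builds, listed in the submitters' processing notes; the settings are not given in the sources used here. The counts are deposited unnormalised and not divided by hashtag. Barcodes were filtered and assigned to hashtags by the rule in the opening. Barcodes with more than 1 hashtag were dropped by it, and doublets of cells with the same hashtag were not removed. Between 1 and 6 kept barcodes were shared by any pair of libraries.

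UMIs of all cells of a hashtagged sample were added up, so that n counts samples rather than cells. The labels call them biological replicates from 3 donor mice, whose cultured cells were handled together. Genes were filtered with filterByExpr (minimum count 10), scaled by TMM (factors 0.918 to 1.05) and put through edgeR's quasi-likelihood test (version 4.0.16, R 4.3.3). P-values were adjusted over all genes tested by Benjamini-Hochberg, with a threshold of 0.05. The main comparison used the 3 MitoPositive spleen and 3 MitoPositive cultured samples, and the difference between arms an interaction over 12 samples. Adjusted p-values in the text are from these fits. A standard error (SE) of a log2 fold change was derived from the F statistic. CPM are UMIs per 1000000 of the sample's total, without TMM. Sums and shares were compared with two-sided exact permutation tests over samples, for which 3 against 3 cannot give a p under 0.1. Floors of 3 UMIs and counting intervals cover counting error only.

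The hashtag list names the donor mouse of each sample, so samples of a donor pair across groups. Deviations from the group means correlated at 0.0269, 0.0419 and 0.0187 for samples of the same donor, and at -0.0342 to 0.0051 for different donors. Donor as a replicate block was an alternative.

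Members and gene lists were chosen with earlier results of these data known. Genes were named by a rule: the 12 largest changes each way at 50 CPM or more with the same direction in 3 donors, up to 4 called members per list and up to 4 called genes each way between the arms by adjusted p, and a set of genes always given, of which 1, like a few list members, is not reported here. Alternatives were DESeq2 1.42.0, its size factors, no count filter, the block, all 18 samples, HTODemux of Seurat 5.3.0, a hashtag margin of 10, the other hashtag key, no mitochondrial limit, T cells, Trbv14 cells or low-cycling cells only, sums thinned to 325046 UMIs, and each sample left out. Added after seeing the data were limma 3.58.1 with the same weight for each sample, a 2-fold minimum, cell cycle lists without Hmgb2, and, between the arms, the other hashtag key and leaving out each MitoNegative sample. The fits were tested on simulated data with known changes. The main fit called 76% of 2-fold and 96% of 4-fold changes, with 24 unchanged genes called. The fit of the difference between arms called 47% and 82%, with 11 unchanged genes called, so many 2-fold differences between arms may be missed.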

Additional observations from a re-analysis of the deposited data

Results flagged for a closer look

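The change from culture to spleen differed between the arms for 48 of the named genes, by the test of the difference itself (edgeR quasi-likelihood interaction, adjusted p under 0.05). Values are log2, MitoPositive change minus MitoNegative change, with 3 samples in each of the 4 groups. Among low-cycling cells alone, 10 of the 43 genes with a value were still called and 40 kept their direction. With the other key for the cultured hashtags 1 of the 48 was still called.

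The change was higher in the MitoPositive arm for genes of circulation and stem-like cells, namely Klf2 (2.03), S1pr1 (1.22), Lef1 (1.26), Satb1 (1.35), Eomes (1.32) and Myb (1.24). It was higher for the surface and signalling genes Il2ra (1.42), Klre1 (2.89), Itgax (2.79), Ccr2 (0.98), Lilrb4a (2.34), Entpd1 (2.13), Ms4a4c (1.78), Art2b (3.26), Txk (1.75) and Pde2a (3.51), for the survival genes Bcl2 (1.27), Gimap9 (0.54) and Gimap4 (0.78), and for Ccl5 (1.91), Dtx1 (1.68), Pmepa1 (1.00), Ssbp2 (1.17), Iigp1 (1.01), Pdk1 (0.87) and Mxi1 (0.82). Not all of these genes rose. Lef1, Satb1, Myb, Il2ra, Gimap4, Pmepa1, Ssbp2, Iigp1, Pdk1 and Mxi1 fell in both arms, by less in the MitoPositive arm. Lef1 changed by -1.79 in the MitoPositive and -3.06 in the MitoNegative arm, and Satb1 by -1.40 and -2.76.

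The change was lower in the MitoPositive arm for the mitotic genes Mki67 (-3.44), Cdc20 (-3.13), Tpx2 (-3.60), Ccnb1 (-3.58), Ccnb2 (-3.67), Ncapg2 (-4.09) and Ncaph (-3.81), the replication genes Pcna (-1.73) and Mcm2 (-1.54), and the histones Hist1h3c (-4.50), Hist1h2ab (-4.00) and Hist2h2ac (-2.48). It was also lower for Pdcd1 (-2.61), Morrbid (-2.46), S100a4 (-1.85), Anxa2 (-1.33), the metabolic and redox genes Ndufa4 (-0.86), Gapdh (-0.92), Prdx1 (-0.997) and Gclm (-0.68), and the folding genes Pdia4 (-0.53) and Sdf2l1 (-1.67). Of these, Pcna, Mcm2, Pdcd1, Morrbid, S100a4, Anxa2, Ndufa4, Prdx1, Pdia4 and Sdf2l1 rose in both arms, by less in the MitoPositive arm.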

How the results depend on the processing

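Day, library and tissue coincide, donor 3's spleen sample holds 50 cells, and the cultured hashtags have 2 keys in the submitters' notes. These limits bear on every result. Of the 155 named genes that were called, 125 kept their call under every alternative that gave them a value. Cell cycle genes, Gimap4, Gimap9 and Cd8a were among those that lost it under at least 1. The total of 6151 genes became 3816 with DESeq2, 3639 at the same weight for each sample, 1243 after thinning to the smallest sample (fewer UMIs and fewer genes tested) and 2132 with a 2-fold minimum. The 3151 higher genes became 1944, 1881, 662 and 1053 in the same settings, and the 3000 lower genes 1872, 1758, 581 and 1079. Leaving out 1 sample gave 4989 to 6665 in all, 2259 to 3488 higher and 2396 to 3177 lower. The 1010 differences between arms became 543 at the same weight, 119 among low-cycling cells alone and 16 with the other hashtag key. The 366 higher became 197, 59 and 14, and 182 when all 18 samples were fitted together, and the 644 lower became 346, 60 and 2. Leaving out 1 of the 12 samples gave 628 to 2120 in all, 203 to 884 higher and 422 to 1236 lower, each highest without the MitoNegative spleen sample of donor 3. With donor as a replicate block, pairing the samples, 5760 genes were called (2924 higher, 2836 lower) and 934 differed between arms (339 higher, 595 lower). The block took the calls from Gimap4 and Cd8a and from no other named gene. The cause of these changes was not tested.

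Il7r, never called, reversed to 0.021 with the other hashtag key and 0.0046 in Trbv14 cells. Mki67 and Ncapg2 reversed to 0.33 and 0.34 among low-cycling cells alone. The difference in the cycling share, spleen minus culture, was 4.63 to 7.72 points with 1 sample left out and reversed to -0.651 points without Hmgb2. The B cell marker sum was 50.7 to 851 CPM higher in the spleen with 1 sample left out and reversed to -20.0 CPM in Trbv14 cells, where the myeloid sum was 153 CPM and the neutrophil sum 1.91 CPM higher in the spleen. With 1 sample left out, spleen minus culture was -0.686 to -0.474 points for the mitochondrially encoded share, -16.2 to -4.38 points for the Trbv14 share, 1463 to 2021 CPM for nuclear oxidative phosphorylation, -309 to -266 CPM for hypoxia, 2413 to 3236 CPM for granzymes, -2996 to -1966 CPM for CD8 markers, 261 to 716 CPM for myeloid markers and 314 to 668 CPM for neutrophil markers.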

Other observations

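Trbv14 took 79.0%, 66.3% and 67.4% of Trbv UMIs in MitoPositive spleen samples (895, 1219 and 43 such UMIs) and 94.3%, 79.9% and 70.6% in MitoPositive culture (934, 1032 and 977 UMIs). The means were 70.9% ± 7.03 and 81.6% ± 11.9 (SD, n = 3 each), overlapping groups (two-sided exact permutation p = 0.2). The share was lower in the spleen of 3 of 3 donors. In the MitoNegative arm Trbv14 took 96.8%, 90.8% and 85.3% in the spleen, above every MitoPositive spleen sample, and 95.1%, 79.3% and 78.0% in culture. The difference between arms was not fitted on Trbv14 cells alone, so the part of this share in it was not tested.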
